A study of Rattus norvegicus with 20 samples.

Results

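The Hox genes of rat hindlimb muscle were taken as the rows of the expression table whose gene name begins with Hoxa, Hoxb, Hoxc or Hoxd followed by a number. The rule found 29 of 21926 gene entries, which carry 28 symbols because Hoxa11 is listed under 2 identifiers. Of these, 9 of 29 reached 1 FPKM (fragments per kilobase of transcript, scaled to library size) in at least 5 of the 20 libraries, and the rest are given by their ranges. Poly(A) RNA was sequenced from the gastrocnemius, a calf muscle of mixed and mainly fast fibres, and the soleus, its slow neighbour, of Sprague Dawley rats. The rats had either a sham operation or hindlimb ischemia made by occluding the ilio-femoral artery from inside with a catheter (samples titled PAD). Gastrocnemius and soleus were each taken after sham operation and after ischemia, which makes 4 groups of 5 libraries. All rats were of the same outbred strain and no transgene or drug is named in the labels. The age, sex and time after occlusion are not stated in the labels, nor is it said whether each library is a separate rat or both muscles came from the same rats. P-values therefore measure the spread between these libraries, which may be technical in part.

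Hox genes encode homeodomain transcription factors that lie in clusters A to D, where a gene's paralog number follows its place along the cluster. In the embryo low paralog numbers are used toward the head and high ones toward the tail, and in the mouse limb the genes of high number in clusters A and D lay out the segments from hip or shoulder to toes or fingers. Cells of adult limb tissues, among them fibroblasts and muscle stem cells, are known to keep part of this positional code. In whole muscle, fewer cells of a type and less RNA per cell cannot be told apart.

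Libraries held 53572270 to 85416565 counts and 6 to 11 Hox entries at 1 FPKM or more. Sham soleus library 4 stood apart: it had 8048 genes at 1 FPKM or more, against 9711 to 11789 in the others, and its scaled library size was 0.494 of its total, against 0.862 to 1.26. TMM scaling, the trimmed-mean scaling of edgeR, therefore raises the CPM (counts scaled to library size) of this library most, and results that rest on it are given with and without it. All 11 slow fibre markers that passed the filter were lower, and all 11 fast fibre markers higher, in gastrocnemius over both treatments. Summed slow marker levels were 180 to 10442 FPKM in gastrocnemius and 31153 to 54398 FPKM in soleus, without overlap between the muscles but with a wide spread among the gastrocnemius libraries. Of the factors that set limb type in the mouse embryo, the forelimb factor Tbx5 reached at most 0.0351 FPKM in any library. The hindlimb factors Tbx4 and Pitx1 reached 0.473 and 1.91 FPKM, and the highest Pitx1 value was in sham soleus library 4. Tbx15, which in mice is used in fast fibres, was at 24.6 to 46.9 FPKM in gastrocnemius and 3.43 to 29.3 FPKM in soleus (18.6 to 29.3 FPKM without sham soleus library 4).

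The Hox profile of both muscles was led by cluster C. It gave 67.2% ± 3.93 (SD, n = 10) of the summed Hox FPKM in gastrocnemius and 79.5% ± 3.19 in soleus, and 5 of its 7 entries passed the filter. Hoxc10 alone, which in the mouse embryo marks the lumbar and hindlimb level, held 45.3% ± 4.27 (n = 20) of the sum. These sums and shares leave out LOC entries described as Hox-A genes, which are given below. The summed Hox level was 53.2 ± 3.97 FPKM in gastrocnemius and 52.1 ± 5.71 in soleus. Ordered by mean FPKM over all libraries, Hoxc10 was followed by Hoxc11, Hoxd8, Hoxc9, Hoxd9, Hoxc6, Hoxa7, Hoxc4 and Hoxa13. Only the step from Hoxc10 down to the next gene exceeded the spread between libraries: Hoxc10 ran from 20.01 to 30.3 FPKM and no value of another member passed 10.8 FPKM, while each later gene overlapped its neighbour in the order.

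**Figure D1:**
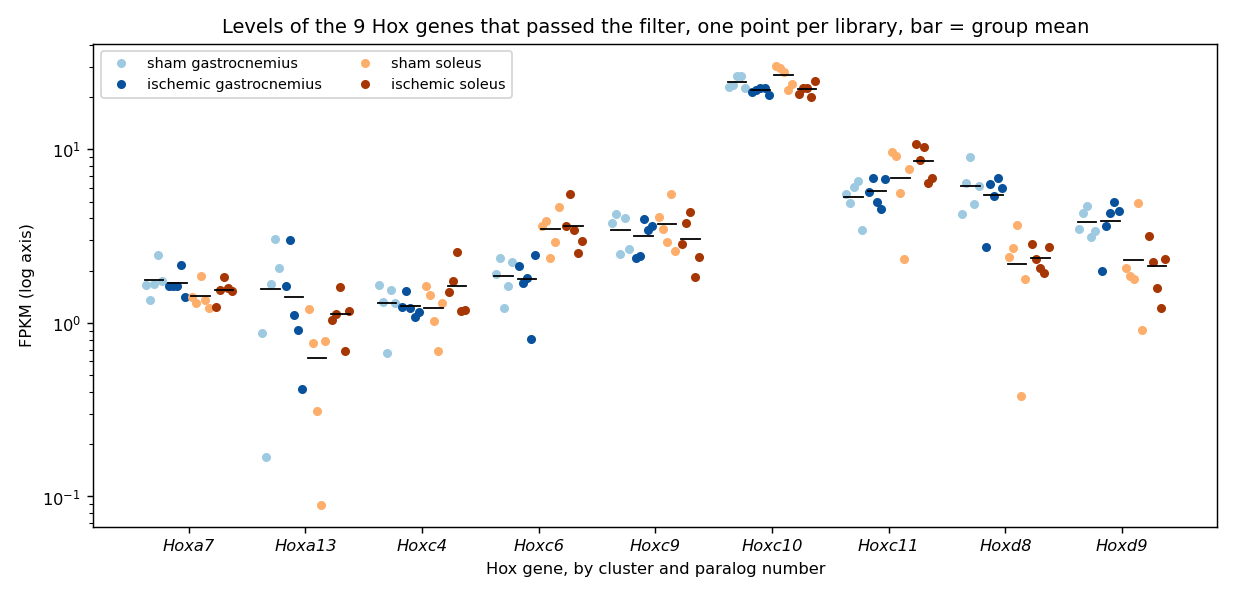
FPKM on a log axis (y) for the 9 Hox genes that passed the filter (x, by cluster and paralog number), 1 point for each of the 20 libraries and a bar at each group mean. Hoxc10 lies between 20.01 and 30.3 FPKM in every library, Hoxd8 is higher in the gastrocnemius groups and Hoxc6 higher in the soleus groups.

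The other 20 entries were low or at 0. None of the 8 cluster B entries passed: Hoxb2, Hoxb3, Hoxb4, Hoxb5, Hoxb6, Hoxb7, Hoxb8 and Hoxb9 stayed between 0 and 1.13 FPKM, and Hoxb8 had a count of 0 in 15 of 20 libraries. In cluster A, Hoxa2, Hoxa4 and the 2 Hoxa11 entries stayed at or below 1.43 FPKM. In cluster C, Hoxc5 and Hoxc8 stayed at or below 0.824 FPKM. In cluster D, Hoxd3, Hoxd4, Hoxd10, Hoxd11 and Hoxd13 stayed at or below 1.53 FPKM. Hoxd11 and Hoxd13, which pattern the lower leg and foot in the mouse, had a count of 0 in 16 and 17 of the 20 libraries, where they were not detectable at this depth.

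The count for cluster A is less certain than for the others. On chromosome 4 of the table, whose build is not stated in the labels or headers, Hox-A5, A7, A9, A10 and A11 are each annotated under 2 entries. There 9 entries carry LOC symbols described as Hox-A3, A5, A6-like, A7-like, A9 or A10-like. These fall outside the rule, and 6 of the 9 passed the filter. Reads can be split between such copies, among them the member Hoxa7 and the Hox-A7-like entry LOC100911622. The Hox-A6-like entry LOC100909604 spans Hoxa13 and one Hoxa11 entry on the same strand. The 2 Hox-A10-like entries, LOC100911668 and LOC100912608, were at 5.24 ± 0.621 and 4.19 ± 0.537 FPKM (n = 10) in gastrocnemius, above both cluster A members that passed. The 9 LOC entries summed to 18.9 ± 1.59 FPKM in gastrocnemius and 14.3 ± 3.56 FPKM in soleus. With them counted in cluster A, cluster C held 49.6% ± 2.71 of the sum in gastrocnemius and 62.6% ± 4.66 in soleus, cluster A 33.4% ± 2.73 and 27.4% ± 4.83, and Hoxc10 34.6% ± 4.57 over all 20 libraries. Reads in the overlapping entries may be counted more than once in these sums.

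The first comparison asked how the muscles differ in Hox expression. Over both treatments, 2 of the 9 members passed edgeR's quasi-likelihood test at a Benjamini-Hochberg adjusted p below 0.05, Hoxd8 higher and Hoxc6 lower in gastrocnemius, where 34.1% of all 11693 tested genes passed (16.1% higher and 18.0% lower). Without sham soleus library 4 it was 5 of 9 members, beside 49.7% of all genes. After sham operation the same 2 members passed in the same directions, beside 24.9% of all genes (11.4% higher and 13.5% lower). After ischemia Hoxd8 alone passed, beside 12.6% of all genes (7.87% higher). The balance of directions over all genes turns on the scaling: over both treatments 1880 genes were higher and 2103 lower with TMM, against 965 and 3645 with library totals. The same counts were 1330 and 1581 against 808 and 1623 after sham operation, and 920 and 553 against 441 and 2192 after ischemia. Hoxd8 was higher and Hoxc6 lower in gastrocnemius with library totals in all 3 comparisons. The comparison over both treatments uses the same libraries as the other 2 and is no separate evidence.

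Hoxd8 (chromosome 3, bases 61627383 to 61628628, plus strand in the table), a mid-cluster gene used at trunk and hindlimb levels in the mouse embryo, was the member with the largest muscle difference among the 9. Its FPKM was 4.22, 6.39, 9.04, 4.84 and 6.16 in sham gastrocnemius and 2.39, 2.71, 3.68, 0.378 and 1.78 in sham soleus. After ischemia it was 2.74, 6.29, 5.36, 6.82 and 6.02 in gastrocnemius and 2.86, 2.32, 2.07, 1.93 and 2.73 in soleus. In FPKM the sham groups did not overlap, as for 15.5% of all tested genes. The ischemic groups overlapped in FPKM only because ischemic gastrocnemius library 1 fell below the highest soleus library. On the TMM scale the muscles overlapped neither after sham operation nor after ischemia, but they did overlap over both treatments. The share of all genes without overlap between muscles on that scale is not given. The separation of Hoxd8 within each treatment therefore cannot be set beside that of other genes. Hoxd8 was 3.07-fold higher in gastrocnemius over both treatments (log2 fold change 1.62 ± 0.24, SE; edgeR, Benjamini-Hochberg adjusted p = 3.8e-05). The difference was 1.68 ± 0.34 on the log2 scale after sham operation (edgeR adjusted p = 0.0013) and 1.56 ± 0.33 after ischemia (edgeR adjusted p = 0.0044). Without sham soleus library 4, which had the lowest Hoxd8 of all, it was 1.52 ± 0.20 over both treatments.

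Hoxd9 lies next to Hoxd8 and with Hoxa9 patterns the upper limb segment in the mouse. Its FPKM was 3.49, 4.33, 4.75, 3.11 and 3.37 in sham gastrocnemius and 2.00, 3.61, 4.28, 5.00 and 4.40 in ischemic gastrocnemius. In soleus it was 2.06, 1.86, 1.78, 4.93 and 0.915 after sham operation and 3.18, 2.26, 1.59, 1.22 and 2.34 after ischemia. The 4.93 FPKM of sham soleus library 4 lay within the gastrocnemius range, while the other 9 soleus libraries were at or below 3.18 FPKM. With that library the difference did not pass (log2 0.82 ± 0.35, edgeR adjusted p = 0.0785), and without it Hoxd9 was higher in gastrocnemius by 1.35 ± 0.21 (edgeR adjusted p = 5.1e-05, where 49.7% of all genes passed).

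Hoxd10, which in the mouse helps set hindlimb nerve and muscle pattern, missed the filter, so its test comes from the fit with a lower filter of 0.1 FPKM in 5 libraries. Its FPKM was 0.398, 0.786, 1.53, 0.569 and 0.960 in sham gastrocnemius and 0.201, 0.232, 0.398, 0.126 and 0.162 in sham soleus. After ischemia it was 0.255, 1.21, 1.03, 0.841 and 0.792 in gastrocnemius and 0.305, 0.167, 0.0557, 0.380 and 0.232 in soleus. As for Hoxd8, ischemic gastrocnemius library 1 was the lowest gastrocnemius library and the one that reached into the soleus range after ischemia, while the sham groups met at 0.398 FPKM. In that fit Hoxd10 was higher in gastrocnemius by 2.16 ± 0.35 (edgeR adjusted p = 0.00011) and Hoxd4 by 1.38 ± 0.41 (adjusted p = 0.0164), and 5 of 25 members passed beside 26.6% of the 16038 genes tested. Hoxd4, a gene of hindbrain and neck levels in the mouse, was at 0.136 to 1.10 FPKM in gastrocnemius and 0.0765 to 0.264 FPKM in soleus. The entries that passed the lower filter partly did so through the muscle where they were high, so their number is no evidence of its own.

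**Figure D2:**
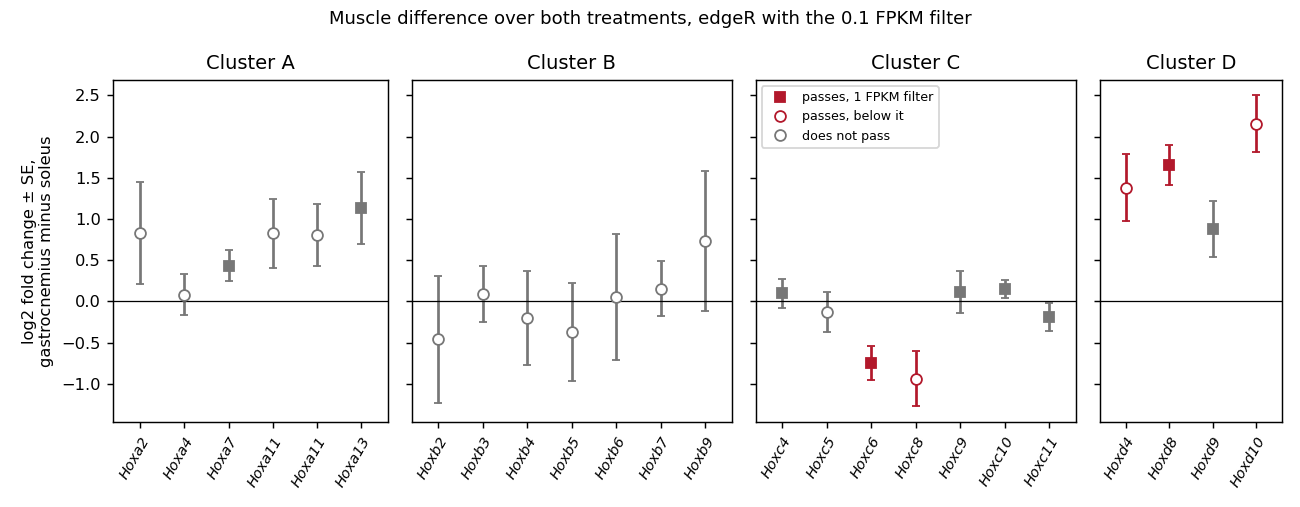
Log2 fold change ± SE (y, gastrocnemius minus soleus over both treatments) from the edgeR fit with the 0.1 FPKM filter, for 24 of the 25 members that it kept (x), 1 panel for each cluster. Filled squares passed the 1 FPKM filter, open circles only the lower one, and red marks an adjusted p below 0.05: Hoxd4, Hoxd8 and Hoxd10 lie above 0 and Hoxc6 and Hoxc8 below it.

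Promoters are shown for Hoxd8, Hoxd9 and Hoxd10, neighbours on 1 strand, as the 250 bases that end at each gene's start. These genes were picked after the data were seen, for being higher in gastrocnemius in the fits. RefSeq on build GRCr8 gave promoters for 13 of the 28 Hox symbols, and these lie on the plus strand at chr3:80014973-80015222, chr3:80007756-80008005 and chr3:80001697-80001946. Capitals mark the CCAAT box, the one motif found.
Hoxd8: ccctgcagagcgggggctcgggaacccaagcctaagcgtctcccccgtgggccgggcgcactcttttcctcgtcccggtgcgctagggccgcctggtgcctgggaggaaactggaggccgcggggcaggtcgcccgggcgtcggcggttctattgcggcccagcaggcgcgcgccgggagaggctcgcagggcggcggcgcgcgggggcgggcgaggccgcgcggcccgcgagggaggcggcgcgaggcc
Hoxd9: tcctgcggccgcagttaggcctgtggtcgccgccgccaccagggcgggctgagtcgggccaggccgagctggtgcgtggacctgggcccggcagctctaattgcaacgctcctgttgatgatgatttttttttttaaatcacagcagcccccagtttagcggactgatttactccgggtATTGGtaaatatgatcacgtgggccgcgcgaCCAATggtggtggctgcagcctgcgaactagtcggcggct
Hoxd10: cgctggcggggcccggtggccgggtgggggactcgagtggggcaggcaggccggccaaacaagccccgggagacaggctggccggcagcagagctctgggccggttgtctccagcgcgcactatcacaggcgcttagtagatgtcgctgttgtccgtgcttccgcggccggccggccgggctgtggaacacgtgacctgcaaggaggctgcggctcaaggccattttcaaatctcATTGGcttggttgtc
The windows were searched on both strands for the homeodomain core TAATTA, the joint Hox and Pbx site TGATNNAT, the TATA box TATAAA and the CCAAT box CCAAT. The first 3 motifs had no match in any of the 3 windows, where 4.86%, 7.96% and 12.9% of the 33462 RefSeq promoter windows of that length hold them. The CCAAT box was matched 71 and 40 bases before the Hoxd9 start and 15 bases before the Hoxd10 start, on opposite strands at Hoxd9, with no overlap, and 34.0% of all windows hold it. G and C made up 78.8%, 60% and 67.2% of the 3 windows, where the median of all windows was 51.2%. A match is a string of letters and not a site shown to be bound.

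Hoxc6, which in the mouse spinal cord marks the level that supplies the forelimb, went the other way. Its FPKM was 1.91, 2.37, 1.22, 1.63 and 2.24 in sham gastrocnemius and 3.61, 3.84, 2.35, 2.95 and 4.68 in sham soleus. After ischemia it was 2.13, 1.69, 1.81, 0.806 and 2.47 in gastrocnemius and 3.60, 5.50, 3.45, 2.52 and 2.96 in soleus. In FPKM the ischemic groups did not overlap, as for 34.1% of all tested genes. The sham groups met in FPKM only where gastrocnemius library 2 slightly exceeded soleus library 3. On the TMM scale, which the test uses, the muscles overlapped after sham operation and after ischemia. Hoxc6 was 1.73-fold lower in gastrocnemius over both treatments (log2 fold change -0.79 ± 0.21, edgeR adjusted p = 0.0066). After sham operation the difference was -0.90 ± 0.30 (edgeR adjusted p = 0.032), which became -0.70 ± 0.28 (adjusted p = 0.0615) without sham soleus library 4 and also missed the threshold without sham gastrocnemius library 3, sham gastrocnemius library 4 or sham soleus library 5. After ischemia it was -0.68 ± 0.30 and did not pass (edgeR adjusted p = 0.141). With library totals it was -1.02 ± 0.29 and passed (edgeR adjusted p = 0.0187), and it passed in 4 of 31 alternatives in all. Its neighbour Hoxc8, under the filter, was at 0.0511 to 0.413 FPKM in gastrocnemius and 0.264 to 0.824 FPKM in soleus (log2 -0.94 ± 0.34; edgeR adjusted p = 0.0455 with the lower filter and 0.0597 with no filter, where 18.3% of all genes passed).

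A measure taken within each library, which no scaling between libraries can change, is the ratio of Hoxd8 to Hoxc6 FPKM. It was 2.21, 2.70, 7.41, 2.97 and 2.75 in sham gastrocnemius and 1.29, 3.72, 2.96, 8.46 and 2.43 in ischemic gastrocnemius. In soleus it was 0.662, 0.705, 1.56, 0.128 and 0.381 after sham operation and 0.795, 0.422, 0.600, 0.764 and 0.922 after ischemia. Each gastrocnemius library held more Hoxd8 than Hoxc6, and 9 of the 10 soleus libraries held less; the muscles overlapped only through ischemic gastrocnemius library 1 and sham soleus library 3. The cluster D share of summed Hox FPKM was 20.5% ± 4.66 (n = 10, 11.3 to 26.6%) in gastrocnemius and 9.69% ± 2.41 (6.24 to 13.0%) in soleus. With the LOC entries counted in cluster A it was 15.1% ± 3.58 (8.15 to 19.9%) and 7.66% ± 2.14 (4.88 to 11.4%), with overlap as before. These ratios are built from members already compared and carry no test.

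**Figure D3:**
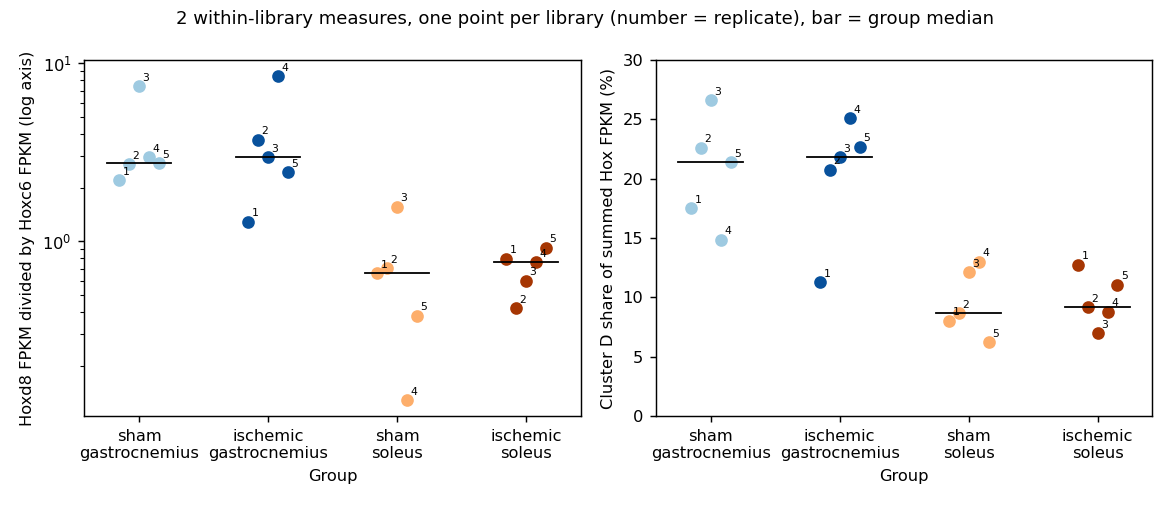
Left, the ratio of Hoxd8 to Hoxc6 FPKM (y, log axis), and right, the cluster D share of summed Hox FPKM in percent (y), for each library (points, numbered by replicate) in the 4 groups (x), with bars at group medians. Gastrocnemius ratios run from 1.29 to 8.46 and soleus ratios from 0.128 to 1.56.

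No cluster A member passed between muscles. Hoxa13, the gene of the outermost limb segment in the mouse, was at 0.873, 0.169, 1.67, 3.05 and 2.08 FPKM in sham gastrocnemius and 1.63, 3.02, 1.11, 0.914 and 0.418 FPKM in ischemic gastrocnemius. In soleus it was 1.20, 0.762, 0.309, 0.0895 and 0.789 after sham operation and 1.03, 1.13, 1.61, 0.692 and 1.18 after ischemia. The values spread over more than 10-fold within sham gastrocnemius and the groups overlapped, and the difference missed the threshold (log2 1.10 ± 0.42, edgeR adjusted p = 0.0513). With the fibre score covariate described below the Hoxa13 difference changed sign, at -1.59 ± 1.03 (edgeR adjusted p = 0.948). Hoxa7, a gene of trunk level, was nearly flat: 1.66, 1.35, 1.68, 2.45 and 1.75 FPKM in sham gastrocnemius and 1.40, 1.30, 1.88, 1.36 and 1.21 in sham soleus. After ischemia Hoxa7 was 1.64, 1.63, 1.62, 2.16 and 1.41 in gastrocnemius and 1.24, 1.55, 1.85, 1.60 and 1.53 in soleus (log2 0.39 ± 0.19 over both treatments, edgeR adjusted p = 0.107). Without sham soleus library 4 the Hoxa7 difference was 0.53 ± 0.15 and passed (edgeR adjusted p = 0.00715). Of the 6 LOC entries tested outside the rule, 5 were higher in gastrocnemius, beside 34.1% of all genes (16.1% higher), and the Hox-A3 entry LOC108348320 did not pass. These 5 are not independent: LOC103689925 and LOC103692128 are both Hox-A9, and LOC100911668 and LOC100912608 are both Hox-A10-like. The remaining entry, LOC100909604, overlaps LOC103689925 and LOC100911668 on the same strand, so the number of entries is no evidence of its own. LOC100909604 was higher in gastrocnemius by 0.92 ± 0.13 (edgeR adjusted p = 1.8e-05), the Hox-A10-like LOC100912608 by 0.60 ± 0.10 (adjusted p = 0.00011) and the Hox-A9 entry LOC103692128 by 0.78 ± 0.20 (adjusted p = 0.0052). None of the 6 passed between muscles with the fibre score covariate described below.

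The 4 other cluster C members did not pass between muscles. Hoxc11, a hindlimb-level gene in the mouse embryo, was at 5.55, 4.92, 6.08, 6.60 and 3.41 FPKM in sham gastrocnemius and 9.72, 9.11, 5.60, 2.34 and 7.67 in sham soleus. After ischemia it was 5.72, 6.81, 4.97, 4.55 and 6.75 in gastrocnemius and 10.8, 8.73, 10.3, 6.38 and 6.80 in soleus. The soleus libraries were mostly the higher ones in FPKM, the lowest value of all was in sham soleus library 4, and on the TMM scale the log2 difference was -0.22 ± 0.17 (edgeR adjusted p = 0.313). For Hoxc10 it was 0.11 ± 0.11 with all libraries and 0.21 ± 0.07 without sham soleus library 4, where it passed (edgeR adjusted p = 0.0169), and with library totals in place of TMM scaling it was -0.07. For Hoxc9 it was 0.06 ± 0.26 and for Hoxc4, at 0.671 to 2.58 FPKM over all libraries, 0.06 ± 0.18, and with library totals both turned negative (-0.03 and -0.15). A difference that misses the threshold does not show that the muscles are alike in these genes.

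Markers of other cell types were counted in the same comparison, in which 34.1% of all genes passed. Of the fibroblast and fibro-adipogenic progenitor markers 6 of 13 were lower and none higher in gastrocnemius, and of the satellite cell markers 5 of 11 were lower and 1 higher. Of the macrophage markers 5 of 11 were lower, of the adipocyte markers 2 of 7, and of the tendon, endothelial and Schwann cell markers 1 each of 8, 11 and 5. Of the mural markers 1 was higher and 2 lower of 11, and none of 4 erythrocyte markers passed. Summed fibroblast marker levels were 389 to 1895 FPKM in sham gastrocnemius, 505 to 2249 in ischemic gastrocnemius, 644 to 1358 in sham soleus and 2578 to 4277 in ischemic soleus. With a fibroblast score as a covariate, chosen after the data were seen, Hoxd8 was still higher by 1.26 ± 0.27 (edgeR adjusted p = 0.0030) and Hoxc6 lower, at -0.79 ± 0.26 (adjusted p = 0.0487), over both treatments. With that covariate the Hoxd8 difference after ischemia was 1.03 ± 0.40 and did not pass (edgeR adjusted p = 0.270). In that comparison 247 of 11693 genes passed, against 1473 without the covariate. With a slow minus fast fibre score as the covariate, also chosen then, no member passed (Hoxd8 1.01 ± 0.61, edgeR adjusted p = 0.909), and 33 of 11693 genes did. That score and the muscle label nearly coincide, so fibre type and muscle cannot be told apart between the muscles.

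Within gastrocnemius the slow minus fast score, the mean log2 CPM of slow markers minus that of fast markers, ran from -8.70 to -1.72, so Hox levels, as log2 CPM, could be set beside it without crossing muscles. Of 11 relations computed over the 10 gastrocnemius libraries, also chosen after the data were seen, 4 passed by Pearson's r. The 11 are the 9 members past the filter and both Hoxa11 entries, which lie below it. Of the 9, Hoxc10 and Hoxa13 reached an r of this size, 2 of 9, where 20.2% of the 11693 tested genes did (10.5% with a negative r), so the share of members was near that of all genes. Of the 18 other entries, the 17 with a value had r from -0.546 to 0.626. The adjusted p-values cover the 11 relations only and not these entries, so they are too small for a search over all members. Hoxa11, which patterns the lower leg segment in the mouse, fell as the score rose under both identifiers. The entry ENSRNOG00000059870 had r = -0.813 and Spearman's rho = -0.830 (permutation p = 0.00435 and 0.0046, Benjamini-Hochberg adjusted p = 0.0347 and 0.0253). The entry ENSRNOG00000053884 had r = -0.783 and rho = -0.903 (permutation, adjusted p = 0.0347 and 0.00847). Hoxc10 had r = -0.760 and rho = -0.770 (permutation, adjusted p = 0.0347 and 0.0447). Hoxa13 had r = -0.757, but its rho of -0.649 did not pass (permutation, adjusted p = 0.0347 and 0.106).

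Without the 2 libraries farthest from the median score (ischemic gastrocnemius 2 and sham gastrocnemius 3), r was -0.911, -0.885, -0.854 and -0.728 in the same order. After the mean of each treatment was taken off, r was -0.798, -0.770, -0.791 and -0.774. A gap parted 3 libraries at -8.70 to -7.18 from 7 at -4.80 to -1.72, and within those 7 r was -0.805, -0.866, -0.674 and -0.451, so the Hoxa13 relation rests in part on the 3. Hoxd8 had r = -0.509 and rho = -0.394 (permutation, adjusted p = 0.211 and 0.322) and Hoxd9 r = -0.257, neither of which passed. Each treatment alone has 5 gastrocnemius libraries, too few for a correlation. Library scaling nearly cancels in the score but not in the Hox levels. The scaled library size was 0.862 to 0.887 of the total in the 3 libraries of lowest score and 0.914 to 1.05 in the other 7. A smaller scaled size raises the CPM of a library, which can add to a negative r. The correlations are given on the TMM scale only, so their dependence on scaling is not settled. Both Hoxa11 entries are near copies and are not independent.

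**Figure D4:**
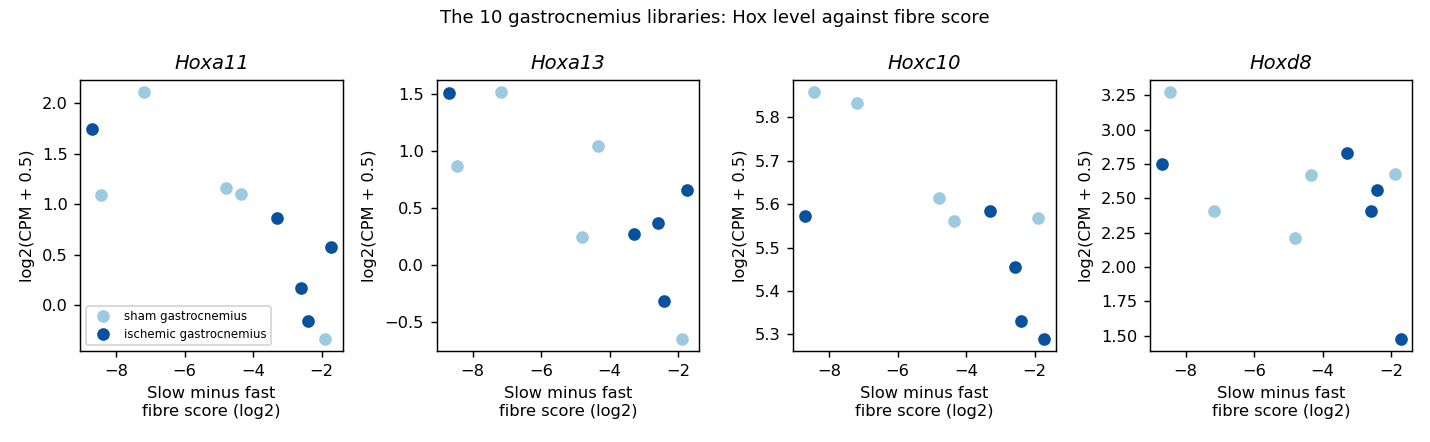
Log2(CPM + 0.5) of Hoxa11 (entry ENSRNOG00000059870), Hoxa13, Hoxc10 and Hoxd8 (y) against the slow minus fast fibre score (x, log2 units) for the 10 gastrocnemius libraries, light blue sham and dark blue ischemic. Pearson's r is -0.813, -0.757, -0.760 and -0.509 in that order.

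The next comparison asked what ischemia did to Hox expression in each muscle. In soleus Hoxc10 was lower after ischemia, 1 of 9 members, where 1.03% of all tested genes passed (0.530% higher and 0.505% lower). With library totals 387 genes were higher and 11 lower, against 62 and 59 with TMM. The TMM-scaled CPM of Hoxc10 was 52.8, 51.3, 48.3, 84.0 and 42.1 in sham soleus and 33.5, 34.8, 35.1, 30.1 and 37.6 in ischemic soleus. On that scale the groups did not overlap, as for 13.5% of all tested genes, and the log2 change was -0.70 ± 0.15 (edgeR adjusted p = 0.0417). Its FPKM was 30.3, 29.4, 27.9, 22.1 and 23.8 in sham soleus and 20.9, 22.5, 22.6, 20.01 and 24.8 in ischemic soleus, which overlapped. Sham soleus library 4 was the highest of its group in CPM and the lowest in FPKM. Without that library the change was -0.51 ± 0.10 (edgeR adjusted p = 0.0120, where 6.15% of all genes passed), and with library totals in place of TMM scaling it was -0.26 ± 0.12 and did not pass (adjusted p = 0.191).

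**Figure D5:**
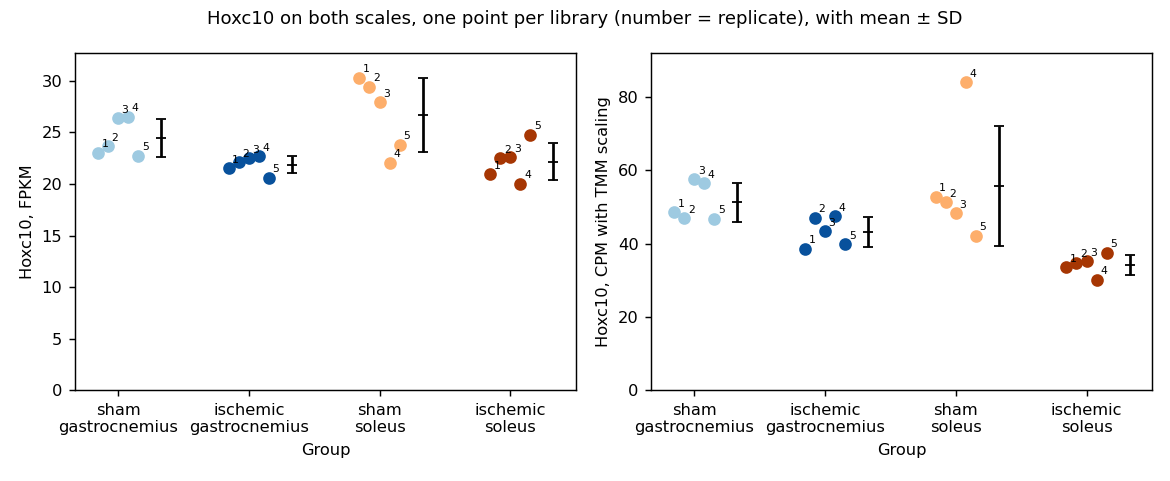
Hoxc10 in FPKM (left) and in CPM with TMM scaling (right) for each library (points, numbered by replicate) in the 4 groups (x), with mean ± SD beside the points. Ischemic soleus lies below sham soleus without overlap in CPM, at 30.1 to 37.6 against 42.1 to 84.0, and overlaps it in FPKM.

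The direction of the Hoxc10 difference was the same in all 31 alternative fits, from -0.79 to -0.25, but it passed in 13 of them. It missed the threshold without any 1 of 11 libraries: each of the 5 ischemic soleus, ischemic gastrocnemius 3, 4 or 5, sham gastrocnemius 5, and sham soleus 1 or 2. In those 11 fits 1 to 27 of all 11693 genes passed, against 121 with all libraries, so the loss was not particular to Hoxc10. In the same comparison 2 of 13 fibroblast markers were higher in ischemic soleus and none lower, and the median log2 change of the 13 was 1.25. None of the 11 slow fibre markers passed, with a median of -0.72 and summed levels of 40147 to 54398 FPKM in sham and 31153 to 36389 FPKM in ischemic soleus. With the fibroblast score as a covariate Hoxc10 was at -0.50 ± 0.19 and did not pass (edgeR adjusted p = 0.459), and 0 of 11693 genes passed in that fit. With the fibre score as a covariate it was -0.71 ± 0.16 and passed (edgeR adjusted p = 0.0279). The part of other cells in the Hoxc10 change was not otherwise tested.

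The other members did not pass in soleus. Hoxc9, which sets thoracic motor neuron identity in the mouse, was at 4.09, 3.50, 2.93, 5.52 and 2.61 FPKM in sham soleus and 2.83, 3.78, 4.37, 1.84 and 2.39 in ischemic soleus, groups that overlapped (log2 -0.89 ± 0.37 on the TMM scale, edgeR adjusted p = 0.128). Hoxd9 was at -0.87 ± 0.50 (edgeR adjusted p = 0.262) and Hoxc6 at -0.39 ± 0.29 (adjusted p = 0.412), with the library values given above. For Hoxc9 and Hoxd9 the highest sham value was that of library 4, and without it the changes were -0.28 ± 0.25 and 0.19 ± 0.30. Hoxd8, the member that differed most between muscles, was at -0.12 ± 0.33 (edgeR adjusted p = 0.850) in soleus.

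In gastrocnemius no member and none of the 11693 genes (0%) passed edgeR's test for ischemia, while 727 genes (6.22%) had an unadjusted p below 0.05. DESeq2 called 11 genes, none of them a Hox gene. Hoxc10 had the smallest p among the members: its FPKM was 23.0, 23.6, 26.4, 26.5 and 22.7 in sham gastrocnemius and 21.5, 22.1, 22.5, 22.7 and 20.6 in ischemic gastrocnemius. Every ischemic value lay below every sham value, as for 1.17% of all tested genes, although the highest ischemic and lowest sham libraries nearly touched, and on the TMM scale the groups overlapped. The log2 change was -0.24 ± 0.15 (edgeR adjusted p = 0.839). Hoxd8 changed by -0.24 ± 0.33, Hoxa7 by -0.15 ± 0.26 and Hoxc6 by -0.16 ± 0.30 (edgeR adjusted p of 0.974, 0.981 and 0.986).

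The test of whether ischemia acted differently in the 2 muscles called none of the members and none of all genes (0%) with edgeR, where 758 genes (6.48%) had an unadjusted p below 0.05 and DESeq2 called 2 genes, neither a Hox gene. Hoxc10 had an interaction of 0.46 ± 0.22 (unadjusted p = 0.0489, edgeR adjusted p = 0.721), so its fall in soleus was not shown to differ from its change in gastrocnemius. The Hoxd8 interaction was -0.12 ± 0.46 (edgeR adjusted p = 0.969).

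Cluster B was low in every group. The summed FPKM of its 8 entries was 0.341 to 1.31 in sham gastrocnemius and 1.07 to 2.55 in ischemic gastrocnemius, and 0.797 to 1.73 in sham soleus and 1.48 to 2.60 in ischemic soleus, so sham and ischemic sums overlapped in both muscles. As a share of the summed Hox FPKM it was 0.585 to 2.51% in sham and 2.11 to 5.05% in ischemic gastrocnemius, and 1.60 to 2.83% in sham and 2.94 to 5.26% in ischemic soleus. These sums and shares carry no test. No cluster B entry passed for ischemia in either muscle in the edgeR fit without a filter, in which 0.00912% of genes passed in soleus and 0% in gastrocnemius. The smallest unadjusted p there belonged to Hoxb2 (log2 3.22 ± 1.27, edgeR unadjusted p = 0.0196 and adjusted p = 0.654), a hindbrain gene in the mouse, in gastrocnemius. Summed endothelial marker levels were 37.5 to 86.2 FPKM in sham and 62.6 to 131 FPKM in ischemic gastrocnemius, and 55.6 to 94.4 and 97.3 to 142 FPKM in soleus. Summed fibroblast, tendon, macrophage and Schwann cell marker levels were also higher in ischemic than in sham soleus without overlap. The slow fibre sums were lower there, and those of fast fibre, satellite cell, mural, adipocyte and erythrocyte markers overlapped. The share of all genes without overlap in FPKM is not given for soleus. FPKM is not TMM-scaled, and with library totals 387 genes were higher and 11 lower in ischemic soleus. With edgeR on the TMM scale none of the tendon, endothelial, macrophage or Schwann cell markers passed in soleus. The part of any of these cell types in the cluster B sum was not tested.

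Genes that work with or upstream of Hox genes were read from lists, each beside all tested genes, whose median log2 muscle difference was -0.08 and of which 34.1% passed (16.1% higher and 18.0% lower). Of 8 TALE homeodomain cofactors tested, the proteins that bind DNA together with Hox proteins, 1 was higher and 2 lower in gastrocnemius, with a list median of -0.23. Pknox1 was higher by 1.20 ± 0.17 and Pbx2 was lower at -0.39 ± 0.09 (edgeR adjusted p = 2.5e-05 and 0.00191). Pbx2 was at 5.68 FPKM in gastrocnemius and 8.61 FPKM in soleus on average. None of the 8 passed for ischemia in either muscle.

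Of 22 limb identity and patterning factors tested, 9 were higher and 6 lower in gastrocnemius, with a median of 0.30; whether this list differs from the others was not tested. Six2, a homeodomain factor of connective tissue and tendon precursors, averaged 7.65 FPKM in gastrocnemius and 0.239 FPKM in soleus (log2 5.41 ± 0.67, edgeR adjusted p = 6.0e-06). Osr1, which in mouse limbs marks connective tissue progenitors, was higher by 1.90 ± 0.19 (edgeR adjusted p = 6.9e-07). Emx2, needed for the shoulder blade and pelvis in the mouse, was lower in gastrocnemius at -2.61 ± 0.36 (edgeR adjusted p = 1.8e-05). None of the 22 passed for ischemia in either muscle.

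Of 33 chromatin regulators of Hox clusters, 4 were higher and 6 lower in gastrocnemius, with a median of -0.17. The Polycomb subunits Phc1 and Pcgf5 were higher by 1.12 ± 0.15 and 0.80 ± 0.14, and Phc2 was lower at -0.69 ± 0.19 (edgeR adjusted p = 1.7e-05, 0.0002 and 0.00816). None of the 33 passed for ischemia in either muscle. Of 13 retinoic acid pathway genes, which make, break down or sense the signal that switches on Hox genes in the embryo, 3 were higher and 2 lower in gastrocnemius, with a median of -0.22. The receptors Rxrg and Rxra were higher by 1.62 ± 0.18 and 0.89 ± 0.24, the synthesis enzyme Aldh1a1 by 1.34 ± 0.19, and the synthesis enzyme Aldh1a2 was lower at -0.63 ± 0.15 (edgeR adjusted p = 1.4e-06, 0.00744, 2.9e-05 and 0.00264). Aldh1a1 was the 1 gene of the 4 lists that passed for ischemia in soleus, at 40.5 ± 18.6 FPKM (n = 5) after sham operation and 20.1 ± 4.07 after ischemia (log2 -1.27 ± 0.27, edgeR adjusted p = 0.0388), and none of the 13 passed in gastrocnemius. With the fibroblast score as a covariate Aldh1a1 did not pass in soleus (log2 -0.79 ± 0.31, edgeR adjusted p = 0.459), nor did any other gene. Aldh1a1 also missed the threshold without each of the same 11 libraries as Hoxc10, where 1 to 27 of 11693 genes passed.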

How the data were processed

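The data are 20 stranded poly(A) libraries (TruSeq, paired-end, per the labels' protocols), 5 in each of 4 groups taken from the sample titles. The deposited table gives, per the file headers, a count and an FPKM value for each gene entry and library. The program, genome build and annotation behind both are not stated in the labels or headers. The deposited counts are whole numbers, not scaled between libraries by the authors, and were handled as estimated counts, since small counts are multiples of 4 more often (28.3 to 36.5% of counts from 1 to 40) than an even spread gives (25%). The authors' FPKM values are by definition scaled to gene length and library size.

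The 11693 genes that reached 1 FPKM in 5 or more libraries were tested on the counts with edgeR 4.0.16 (TMM scaling, robust quasi-likelihood fit, 1 term for each group, all 20 libraries, two-sided) in R 4.3.3, with Benjamini-Hochberg adjustment over all tested genes and a threshold of 0.05. Levels are FPKM, and fold changes are on the TMM scale. With 53572270 to 85416565 counts, Hoxc10 rested on 2271 to 4308 counts in a library, Hoxd8 on 22 to 461 and Hoxa13 on 4 to 160, so the last is the least precise. On simulated data the fit recovered 72% of genes changed by 1 and 97% of those changed by 2 on the log2 scale in the muscle comparison over both treatments (11693 genes).

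All 9 members that passed the filter are named, with every library's value for the 6 of smallest p between muscles and the 4 of smallest p in each ischemia comparison. From each further list up to 4 genes of smallest p were named. Single values of 4 genes that these rules include are not reported here. Hoxd10, Hoxd4 and Hoxc8 were singled out below the filter after their values were seen. Members, lists and tests were chosen with earlier results of these data known. Alternatives were DESeq2 1.42.0, limma 3.58.1 on log2(FPKM + 1) and log2(FPKM + 0.1), voom weights, library totals, other filters, only the groups compared, a replicate block, each library left out, and 2 covariates added after seeing the data. Correlations used 100000 permutations. The labels give no batch.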

Additional observations from a re-analysis of the deposited data

Results flagged for a closer look

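Of 36 sets of 5 library values (9 members in 4 groups), 2 held a library far from the other 4 by Dixon's test, close to the 1 in 20 that chance gives. Hoxd9 was at 4.93 FPKM in sham soleus library 4 and at 0.915 to 2.06 FPKM in the other 4 sham soleus libraries. The same library had the lowest Hoxd8 of all 20 and the fewest genes at 1 FPKM or more. Hoxa7 was at 1.88 FPKM in sham soleus library 3 and at 1.21 to 1.40 FPKM in the other 4.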

How the results depend on the processing

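The number of Hox genes that passed was 2 between muscles after sham operation, 1 after ischemia, 2 over both treatments, 1 for ischemia in soleus, and 0 for ischemia in gastrocnemius and for the interaction. The last 2 counts stayed 0 in each alternative run. Over both treatments Hoxd8 and Hoxc6 each passed in 29 of 30 alternatives, all but the fibre score covariate. After sham operation the count was 1 with only the groups compared, 5 with voom weights, 0 with the fibre score, and 1 to 3 with a library left out. After ischemia it was 2 with library totals, 2 with no filter, 3 with the lower filter, 2 with limma on log2(FPKM + 1), 3 with only the groups compared, 4 with voom weights, 0 with the fibre score, 0 with the fibroblast score, and 1 to 3 with a library left out. Over both treatments it was 5 with DESeq2, 4 with no filter, 5 with the lower filter, 6 with voom weights, 0 with the fibre score, and 2 to 5 with a library left out. The 5 came without sham soleus library 4, when Hoxa7, Hoxc10 and Hoxd9 also passed. In soleus the count was 0 with library totals, no filter, either limma fit, only the groups compared, the replicate block and the fibroblast score. It was 0 to 1 with a library left out. After sham operation 2911 of 11693 genes passed, against 1387 with only the groups compared, 5267 with voom weights and 13 with the fibre score. After ischemia 1473 passed, against 3685, 5105 and 53 in the same fits, 2633 with library totals and 247 with the fibroblast score. Over both treatments 3983 passed, against 6894 with voom weights and 33 with the fibre score. In soleus 121 passed, against 398 with library totals and 0 with the fibroblast score.

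Whether equal replicate numbers mark the same rat is not stated. Deviations of same-numbered libraries correlated between muscles above 0.1 in 2 of 5 sham and 4 of 5 ischemic pairs (-0.163 to 0.363 over all 10), and from -0.482 to 0.449 between treatments, so the rule that every pair exceed 0.1 was not met. With the replicate block the counts were 2 after sham operation, 1 after ischemia, 3 over both treatments (with Hoxd9), 0 in soleus, 0 in gastrocnemius and 0 for the interaction. With the fibre score, Pknox1 reversed to -0.20 after sham operation, -0.41 after ischemia and -0.30 over both treatments, and Phc1 to -0.0235, -0.0290 and -0.0263. Hoxa13, which had not passed, also changed sign, to -1.43 ± 1.19, -1.74 ± 1.01 and -1.59 ± 1.03 in the same order, and did not pass. The cause was not tested.

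Library totals in place of TMM moved the median log2 change of all genes from -0.03 to -0.38 between muscles after ischemia, from -0.08 to -0.29 over both treatments, from -0.04 to 0.31 for ischemia in soleus and from 0.05 to -0.21 for the interaction. With limma on log2(FPKM + 1), 475 genes were higher and 3041 lower in gastrocnemius after ischemia. Counts over all genes ranged, with single libraries left out, from 2065 to 4136 (sham), 849 (without ischemic gastrocnemius 2) to 3784 (without sham soleus 4, ischemia), 3342 to 5813 (both), 1 to 737 (soleus), 0 to 6 (gastrocnemius) and 0 to 1 (interaction). Over the other alternatives they ranged from 13 to 5267, 53 to 5105, 33 to 6894, 0 to 3057, 0 to 571 and 0 to 2. Genes with few counts, such as Hoxa13 and the members below the filter, are limited by depth.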
